A study of Mus musculus with 6 samples.

Results

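Antioxidant and glutathione genes were examined in mouse hearts with and without the long non-coding RNA *Trdn-as*. The set was drawn from the protein-coding rows of the gene table by symbol. It comprised *Sod1*, *Sod2*, *Sod3*, *Cat*, *Hmox1*, *Nqo1*, *Gclc*, *Gclm*, *Gsr*, *Gss*, *Nfe2l2*, *Txn1*, *Txn2*, *Txnrd1* and *Txnrd2*, together with every symbol beginning with Gpx, Prdx or Gst. This gave 45 of the 21776 genes in the table, of which 14970 were protein coding.

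The data were 6 strand-specific libraries of total heart RNA, 3 labelled *Trdn-as* KO and 3 labelled WT. The KO line is homozygous for a polyadenylation signal that was placed in exon 1 of *Trdn-as* by Cas9 in embryonic stem cells. The line was backcrossed to C57BL/6, and as a germline change the insertion is carried in all tissues and not in cardiomyocytes alone. The age of the mice, their sex and whether the WT mice were littermates are not given in the sources used here. *Trdn-as*, listed as AC157017.2 (ENSMUSG00000112707), reached normalised read counts of only 1, 0 and 1 under KO, compared with 690, 773 and 688 under WT, so the targeted gene matched the labels. Its host gene *Trdn*, which encodes the calcium release protein triadin, read 2489, 2381 and 2551 under KO, compared with 1541, 1541 and 1516 under WT. A normalised read count is the number of reads of a gene divided by the size factor of its library. The values of a library summed to between 3.13 and 3.25 M, and the libraries were estimated to hold 2.59 to 3.62 M counted reads. Of the 8 cardiomyocyte markers looked up, *Myh6*, *Tnnt2* and *Ryr2* among them, all 8 were above 0 in all 6 hearts, as the label heart requires.

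Superoxide leaks from the respiratory chain, which is dense in the heart, and from NADPH oxidases. Superoxide dismutases convert it to hydrogen peroxide, and catalase, glutathione peroxidases and peroxiredoxins then reduce the peroxide to water. Glutathione peroxidases draw electrons from glutathione and peroxiredoxins draw them from thioredoxin, and both thiols are regenerated by reductases that consume NADPH. Glutathione S-transferases couple glutathione to reactive compounds such as oxidised lipids. NRF2, the product of *Nfe2l2*, is the transcription factor that induces many of these genes through a short DNA motif called the antioxidant response element.

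A glutathione peroxidase is built around either selenocysteine, encoded by an in-frame UGA codon, or cysteine, and this divides the 5 members of the family found in the table. The coding sequence around that codon is given as DNA, with the codon in capitals, because it tells which of these genes depend on selenium. The sequences are those of GENCODE M21 transcripts on GRCm38. *Gpx1*, *Gpx3*, *Gpx4* and both thioredoxin reductases carry TGA, and *Gpx7* and *Gpx8* carry a cysteine codon at the matching place.
Gpx1: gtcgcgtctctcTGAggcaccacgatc
Gpx3: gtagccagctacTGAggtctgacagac
Gpx4: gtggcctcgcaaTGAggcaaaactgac
Gpx7: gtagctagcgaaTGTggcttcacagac
Gpx8: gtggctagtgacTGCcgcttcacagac
Txnrd1: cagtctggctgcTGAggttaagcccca
Txnrd2: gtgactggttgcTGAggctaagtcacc
The codon lies in exon 1 of *Gpx1* at chr9:108339451-108339453, in exon 3 of *Gpx3* at chr11:54907256-54907258, and in exon 3 of *Gpx4* at chr10:80054737-80054739, all on the plus strand. In *Gpx7* it lies in exon 2 at chr4:108403430-108403432 and in *Gpx8* in exon 2 at chr13:113045661-113045663, both on the minus strand. In *Txnrd1* it lies in exon 15 at chr10:82896037-82896039 and in *Txnrd2* in exon 16 at chr16:18477772-18477774, both on the plus strand. The selenocysteine codon of both reductases is followed at once by a glycine codon and the stop codon. Exon numbers refer to 1 annotated transcript of each gene.

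Levels of different genes were compared per kilobase of annotated exon, with all isoforms of a gene merged. By this measure *Cat*, the peroxisomal enzyme that splits hydrogen peroxide, stood first at 289 ± 11.0 normalised reads per exonic kb (SD over all 6 hearts). *Prdx3*, the mitochondrial peroxiredoxin, followed at 258 ± 18.1, with a range that overlapped that of *Cat*. Below them came a gap to *Gstm1* at 157 ± 6.75, then *Gsto1* at 155 ± 12.6 and *Gsta4* at 155 ± 11.9, whose ranges overlapped each other. At the lower end were *Gstt3* at 2.47, *Gsta1* at 2.09 and *Gsto2* at 1.14 reads per exonic kb. Of the 44 pairs of neighbours in this order, 40 had overlapping ranges over the 6 hearts, so most of the ranks are not separated beyond the spread between hearts. The length of annotated exon matters here: *Sod2*, which had the most reads of any member, has 10008 bases of merged exon and reached only 112 ± 4.13 reads per exonic kb, the 11th level.

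**Figure D1:**
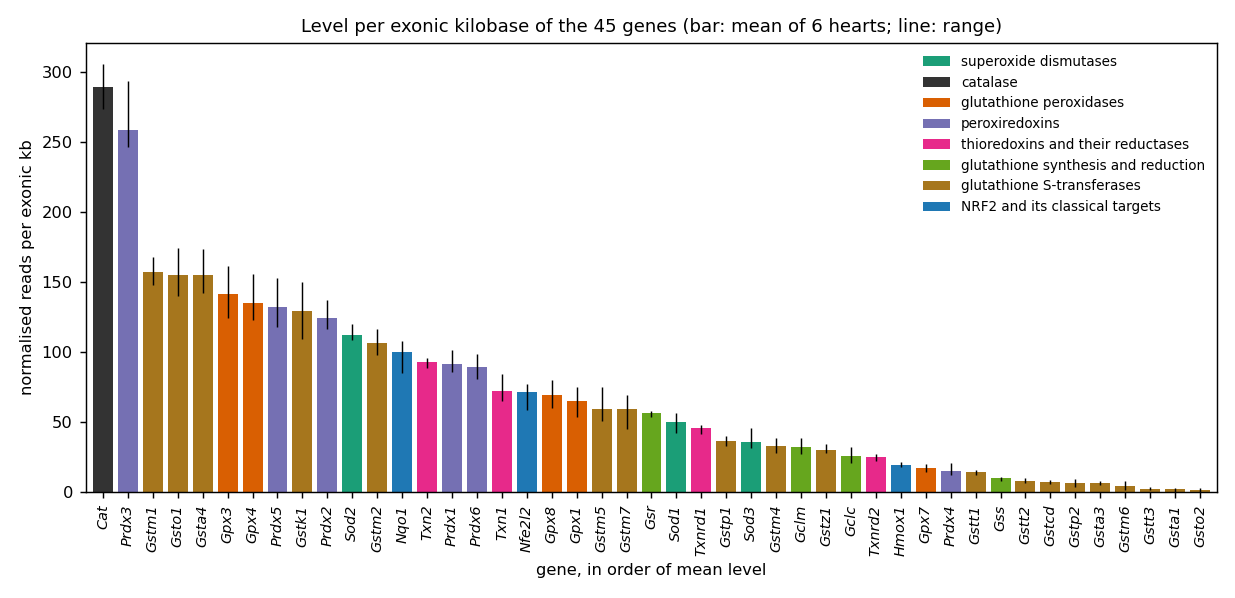
Level of each of the 45 genes in normalised reads per kilobase of merged annotated exon, ordered from highest to lowest and coloured by role, with bars at the mean of 6 hearts and lines over the range. *Cat* at 289 and *Prdx3* at 258 stand above the rest, and the lowest genes are glutathione S-transferases.

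KO and WT hearts were compared with limma on log2(value + 1) over the 13753 genes with a mean of at least 10, two-sided, with Benjamini-Hochberg adjustment over all of them. Of the 45 genes, 40 reached that mean and were tested. None of the 40 passed an adjusted p of 0.05, against 4 genes or 0.0291% of all genes tested (0.0218% higher and 0.00727% lower in KO), and 0 passed with limma-voom. Their smallest adjusted p was 0.851 (limma). At an unadjusted p under 0.05 there were 3 members, *Gclc* higher and *Gstk1* and *Prdx4* lower in KO. This is 7.5% of the 40 tested, beside 5.74% of all genes tested (2.94% higher and 2.8% lower in KO). Without WT replicate 1 there were 0 such members, without KO replicate 3 or WT replicate 2 there was 1, and without WT replicate 3 there were 6. The ranges of the groups were apart for 4 members, or 10% of the 40, beside 9.07% of all genes tested. Both shares lay near those of all genes. The 40 log2 fold changes (KO minus WT, also called log2 differences here) ran from -0.45 to 0.34, with 18 above and 22 below 0 and a median of -0.02. Over all genes tested 50.6% were above 0 and the median was 0.00. With the libraries scaled to equal totals, which shifted the median of all genes to 0.02, 20 members were above and 20 below 0. The p-values rest on the spread between the 3 hearts of each group, moderated by limma. The variance of each gene is drawn towards that of genes at a similar level, with 4 residual and 15.4 prior degrees of freedom.

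The intervals show what size of difference the data leave room for. The 95% interval of the fold change lay within 1.5-fold in either direction for 34 of the 40 members, and for 74.4% of all genes tested. It lay within 1.25-fold for 19 members and for 43.2% of all genes tested. The 6 members with wider intervals were *Gpx7*, *Prdx4*, *Gsta3*, *Gstcd*, *Gstt1* and *Gstt2*, whose group means were all at 42 normalised reads or fewer. For these genes a difference of 1.5-fold lay within the interval.

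**Figure D2:**
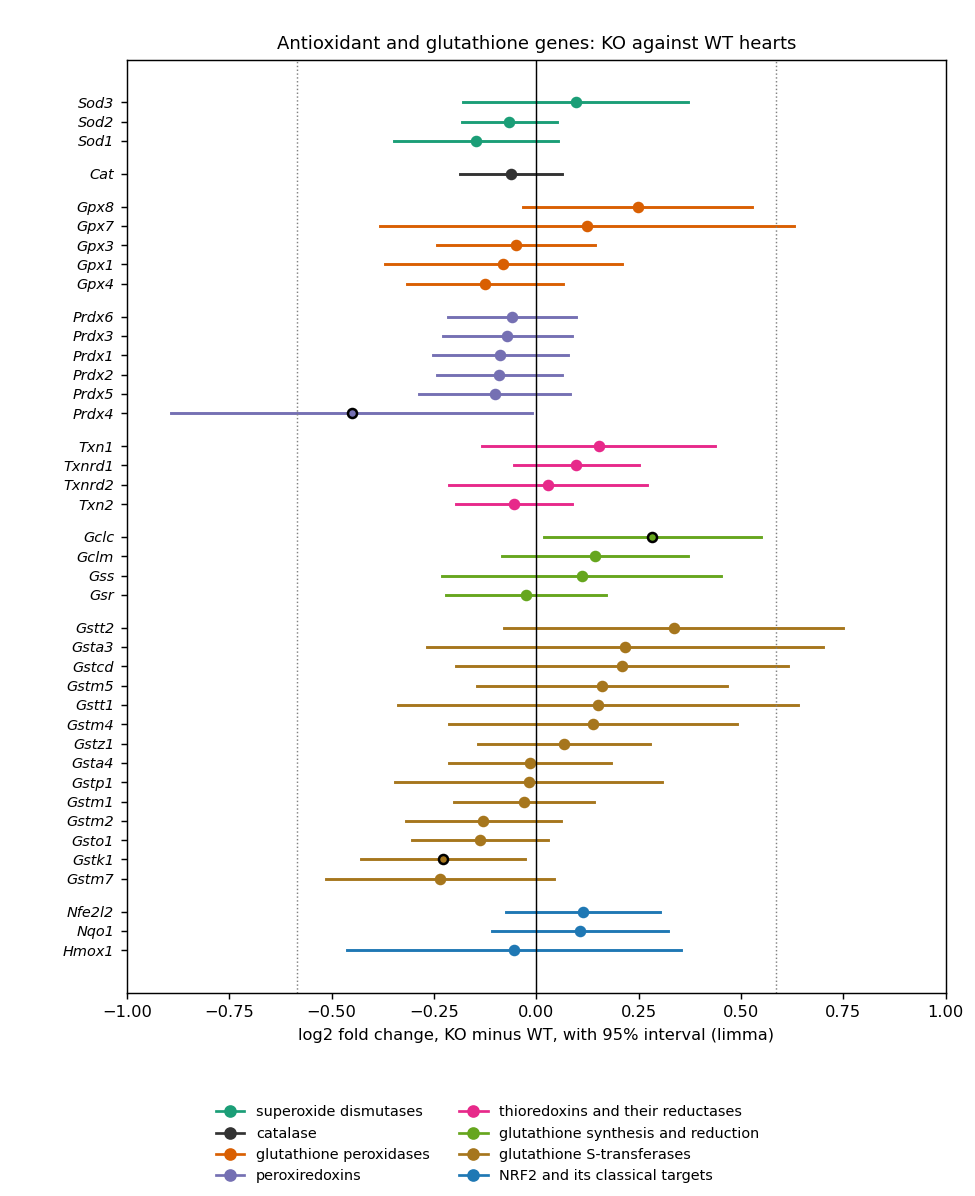
Log2 fold change of KO over WT hearts with its 95% interval (limma, n = 3 hearts per group) for the 40 genes tested, grouped and coloured by role, with dotted lines at 1.5-fold and black rings on the 3 genes at an unadjusted p under 0.05. All 6 peroxiredoxins lie left of 0, and 34 of the 40 intervals stay between the dotted lines.

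Among the superoxide dismutases, *Sod2* encodes the manganese enzyme of mitochondria. Normalised read counts for it were 1102, 1085 and 1112 under KO and 1199, 1147 and 1108 under WT. The groups overlapped, because the lowest WT heart lay between KO hearts. The log2 fold change was -0.07 (SE 0.06), and its interval allowed a ratio of KO to WT from 0.882 to 1.04. *Sod1*, the cytosolic copper and zinc enzyme, had a log2 difference of -0.15 (SE 0.10), and *Sod3*, the secreted form, one of 0.10 (SE 0.13). In the 3 KO hearts *Sod3* ran from 117 to 171 and in the WT hearts from 118 to 150.

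*Cat* gave normalised read counts of 746, 715 and 759 under KO and 799, 774 and 744 under WT. The WT heart with the lowest value lay inside the KO range. The log2 fold change was -0.06 (SE 0.06), with a ratio between 0.879 and 1.04 by its 95% interval, among the narrowest intervals of the set.

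The glutathione peroxidases had 2 members higher and 3 lower in KO by the sign of the fold change, and 0 at an unadjusted p under 0.05. The 3 lower ones were the 3 with the selenocysteine codon shown above, and the 2 higher ones were the 2 with a cysteine codon. This split was seen after the values were known and was not tested. It stood under every scaling tried, but *Gpx1* turned positive without KO replicate 1 or WT replicate 1, and *Gpx3* without KO replicate 3. *Gpx3*, the secreted plasma enzyme and the member of the family with the most reads, had 242, 293 and 225 under KO and 257, 270 and 255 under WT. KO values lay on both sides of the WT values, and the log2 fold change was -0.05 (SE 0.09). *Gpx1*, the main cytosolic form, had a log2 difference of -0.08 (SE 0.14). *Gpx4*, which reduces lipid peroxides within membranes and thereby restrains ferroptosis, had one of -0.12 (SE 0.09).

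*Gpx8*, a cysteine-type peroxidase of the endoplasmic reticulum, is found at 113042759 to 113046386 on chromosome 13, minus strand (GRCm38). It had 75, 79 and 84 under KO and 63, 66 and 71 under WT. No WT heart reached the lowest KO heart, which held for 4.64% of all genes tested. The KO mean of 79.3 ± 4.51 compared with a WT mean of 66.7 ± 4.04 (SD, n = 3). This gave a log2 difference of 0.25 (SE 0.13) at an unadjusted p of 0.0794 and an adjusted p of 0.861 (limma). *Gpx7*, the related enzyme of the same compartment, had 23, 26 and 19 under KO and 18, 21 and 23 under WT, with overlapping groups.

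The 6 peroxiredoxins were all lower in KO hearts by the sign of the fold change, and 1 of them, *Prdx4*, was at an unadjusted p under 0.05. Their median log2 fold change was -0.09. *Prdx6*, the member with the most reads, which also has phospholipase activity, had 388, 435 and 438 under KO and 475, 433 and 407 under WT. The groups overlapped and the log2 fold change was -0.06 (SE 0.08). The others were *Prdx1* at -0.09 (SE 0.08) and *Prdx2* at -0.09 (SE 0.07), both cytosolic, *Prdx3* at -0.07 (SE 0.08), and *Prdx5*, found in mitochondria and peroxisomes, at -0.10 (SE 0.09). The size of this shift depended on single WT hearts. The summed reads of the family were 1701, 1715 and 1765 under KO and 2002, 1832 and 1682 under WT. WT replicate 1 was the highest and WT replicate 3 the lowest of all 6. WT replicate 1 was also the library with the fewest estimated reads, 2.59 M, and the part of depth in these values was not tested. Without WT replicate 1 the median log2 fold change of the family was -0.03, with 5 of 6 lower, and without WT replicate 3 it was -0.14, with all 6 lower.

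*Prdx4* (ENSMUSG00000025289) encodes the peroxiredoxin of the endoplasmic reticulum and is found at 155323918 to 155338467 on chromosome X, minus strand. It had 26, 26 and 28 under KO and 39, 44 and 29 under WT. KO values were all below WT values, as for 4.44% of all genes tested, although KO replicate 3 and WT replicate 3 were only 1 normalised read apart. The KO mean of 26.7 ± 1.15 compared with a WT mean of 37.3 ± 7.64 (SD, n = 3). Its estimate on the log2 scale was -0.45 (SE 0.21) at an unadjusted p of 0.0450 and an adjusted p of 0.851 (limma). Leaving out 1 heart at a time, the unadjusted p ran from 0.0118 to 0.195 (limma) and was under 0.05 in 1 of the 6 fits, the one without WT replicate 3.

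The cardiomyocyte markers were highest in the same hearts as the peroxiredoxins, WT replicates 1 and 2. Summed over the 8 markers, normalised reads were 20795, 21704 and 22214 under KO and 26577, 23893 and 21652 under WT, with KO replicate 3 next. All 8 were lower in KO by the sign of the fold change under every setting, and 4 were at an unadjusted p under 0.05 (limma). Their median log2 fold change was -0.16, with -0.05 without WT replicate 1 and -0.25 without WT replicate 3. In whole hearts, fewer cells of a type and less RNA per cell cannot be told apart, and the part of this difference in the peroxiredoxin values was not tested. The 6 red blood cell markers were also highest in WT replicate 1, with sums of 322, 169 and 208 under KO and 437, 152 and 301 under WT. Red blood cells are rich in *Prdx2*, *Cat* and *Gpx1*, and the part of blood in those values was not tested.

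**Figure D3:**
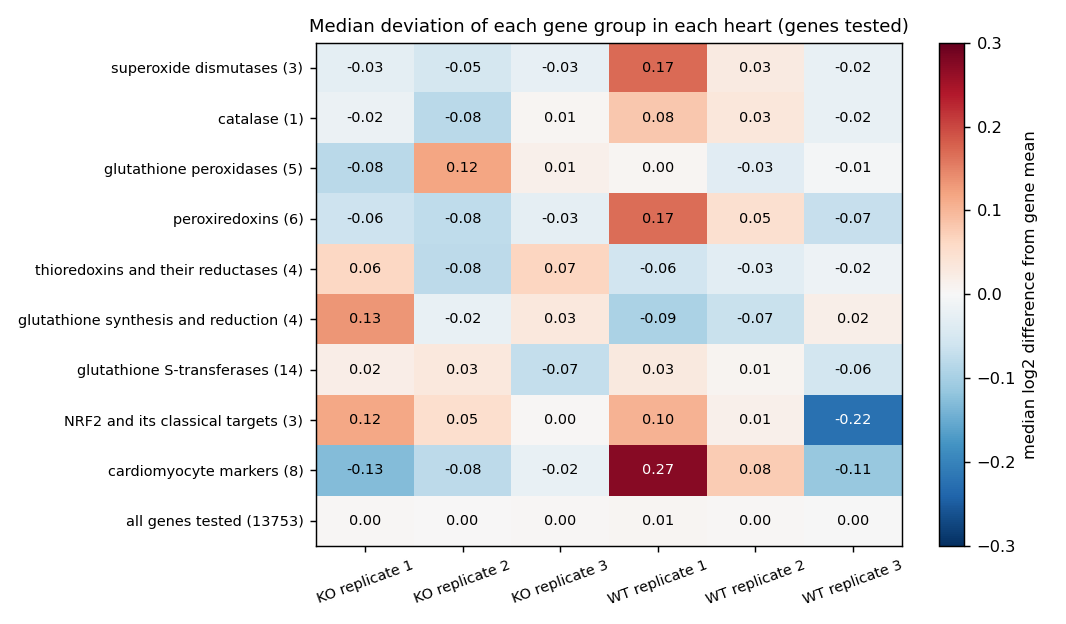
Median over the tested genes of each group (number in brackets) of log2(value + 1) minus the gene's mean over all 6 hearts, for each heart, with the cardiomyocyte markers and all genes tested below. In WT replicate 1 the medians are 0.17 for the superoxide dismutases, 0.17 for the peroxiredoxins and 0.27 for the cardiomyocyte markers, whereas that of all genes tested is 0.01.

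The thioredoxin system supplies electrons to the peroxiredoxins, and 3 of its 4 members had a positive log2 fold change. *Txn2*, the mitochondrial thioredoxin and the member with the most reads, had 402, 372 and 376 under KO and 395, 397 and 402 under WT. The highest KO heart equalled the highest WT heart and the other KO hearts lay below all WT hearts, with a log2 difference of -0.05 (SE 0.07). The cytosolic thioredoxin *Txn1* had one of 0.15 (SE 0.14). For the reductases, the cytosolic *Txnrd1* had 0.10 (SE 0.07) and the mitochondrial *Txnrd2* 0.03 (SE 0.12). *Txnrd1* and *Txnrd2* carry the selenocysteine codon but did not share the sign of the selenocysteine peroxidases.

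Glutathione is made in 2 steps. The first is carried out by glutamate-cysteine ligase, with its catalytic subunit *Gclc* and its modifier subunit *Gclm*, and the second by *Gss*, while *Gsr* returns oxidised glutathione to its reduced form. *Gclc* (ENSMUSG00000032350) is found at 77754535 to 77794485 on chromosome 9, plus strand. It had 121, 98 and 101 under KO and 78, 92 and 92 under WT. No WT heart reached the lowest KO heart. The KO mean of 107 ± 12.5 compared with a WT mean of 87.3 ± 8.08 (SD, n = 3), a fold change of 1.22 on the log2(value + 1) scale with a 95% interval of 1.01 to 1.46. On the log2 scale this is 0.28 (SE 0.13) at an unadjusted p of 0.0370 and an adjusted p of 0.851 (limma). Leaving out 1 heart at a time, the unadjusted p ran from 0.0269 to 0.182 (limma) and was under 0.05 in 4 of the 6 fits. It was not under 0.05 without KO replicate 1, the highest heart, or without WT replicate 1, the lowest.

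*Gclm* had 219, 179 and 243 under KO and 172, 192 and 214 under WT. The groups overlapped widely, and the log2 fold change was 0.14 (SE 0.11). KO replicate 2 was the lowest of the KO hearts for *Gclc* and *Gclm* alike. *Gss* had a log2 difference of 0.11 (SE 0.16) and *Gsr* one of -0.03 (SE 0.09). For *Gsr* the 95% interval allowed a ratio from 0.859 to 1.12.

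**Figure D4:**
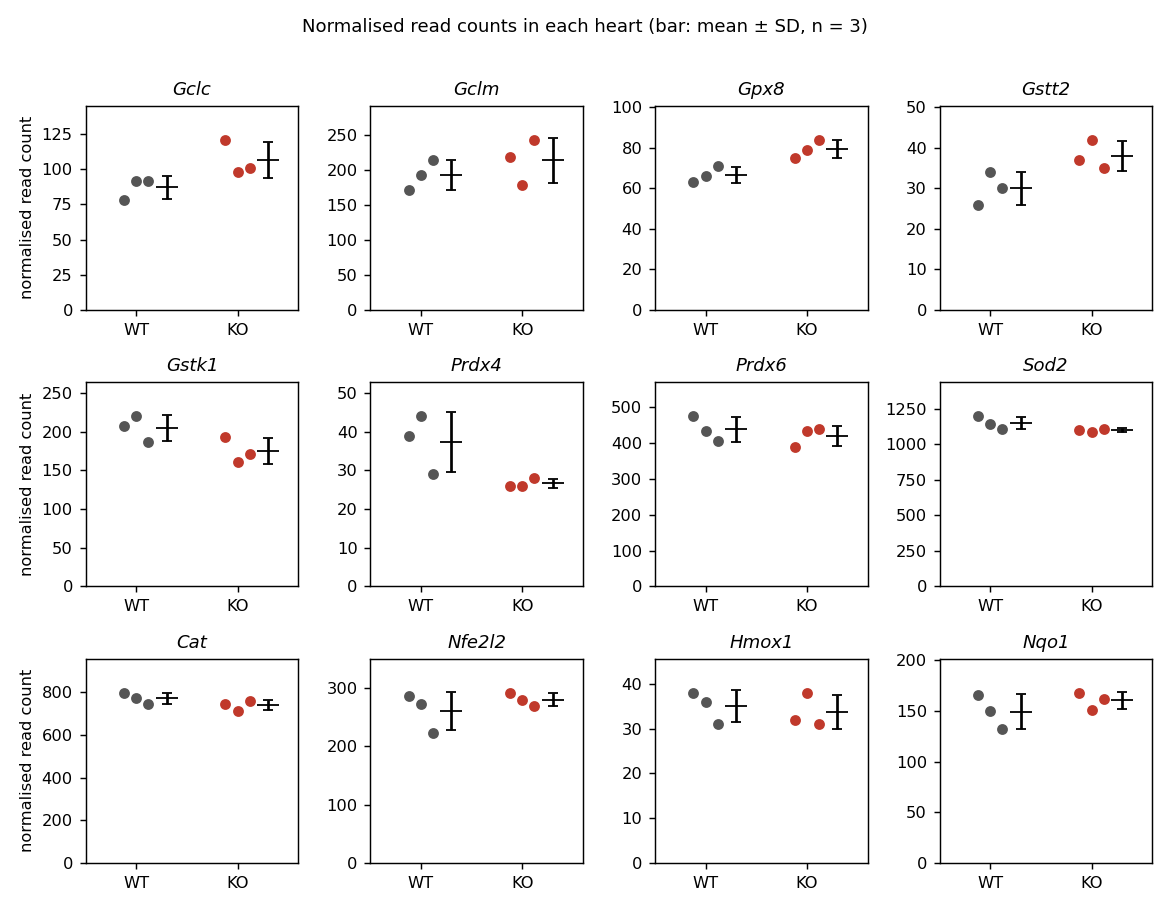
Normalised read counts of 12 of the genes in each of 3 WT and 3 KO hearts, as points, with the mean ± SD beside them and each vertical axis starting at 0. KO and WT points are separate for *Gclc*, *Gpx8*, *Gstt2* and *Prdx4* and overlap for the other genes.

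The glutathione S-transferases were the largest family, with 19 genes, 14 of them tested. Of these 7 had a positive and 7 a negative log2 fold change, with a median of 0.03. *Gstk1*, the kappa-class enzyme of mitochondria and peroxisomes (ENSMUSG00000029864), is found at 42245935 to 42250441 on chromosome 6, plus strand. It had 193, 161 and 171 under KO and 208, 220 and 187 under WT. The groups overlapped at 1 heart on each side, KO replicate 1 and WT replicate 3. The KO mean of 175 ± 16.4 compared with a WT mean of 205 ± 16.7 (SD, n = 3). This corresponds to a log2 difference of -0.23 (SE 0.10) at an unadjusted p of 0.0284 and an adjusted p of 0.851 (limma), the smallest p of all members. Leaving out 1 heart at a time, the unadjusted p ran from 0.00788 to 0.133 (limma) and was under 0.05 in 2 of the 6 fits, those without KO replicate 1 and without WT replicate 3.

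*Gstt2*, a theta-class enzyme, is found at 75831114 to 75837367 on chromosome 10, minus strand. It had 37, 42 and 35 under KO and 26, 34 and 30 under WT, without overlap. For *Gstt2* the log2 fold change was 0.34 (SE 0.20) at an unadjusted p of 0.106 and an adjusted p of 0.879 (limma). *Gstt3*, of the same cluster, was below the mean of 10 and was not tested. It had 12, 9 and 14 under KO and 8, 8 and 6 under WT, also without overlap. *Gstt1*, which lies between them, had 23, 24 and 21 under KO and 19, 22 and 20 under WT, with a log2 difference of 0.15 (SE 0.23).

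*Gsto1*, the omega-class enzyme with the most reads of the family, had 293, 320 and 284 under KO and 353, 330 and 304 under WT. The groups overlapped, and the log2 fold change was -0.14 (SE 0.08). The mu class, encoded side by side on chromosome 3, gave mixed signs: *Gstm1* was at -0.03 (SE 0.08), *Gstm2* at -0.13 (SE 0.09), *Gstm4* at 0.14 (SE 0.17), *Gstm5* at 0.16 (SE 0.15) and *Gstm7* at -0.23 (SE 0.13). Of the remaining tested genes, *Gsta3* was at 0.22 (SE 0.23), *Gstcd* at 0.21 (SE 0.19), *Gstz1*, an enzyme of tyrosine breakdown, at 0.07 (SE 0.10), *Gstp1* at -0.02 (SE 0.16), and *Gsta4*, which clears lipid aldehydes, at -0.02 (SE 0.09). None of these was at an unadjusted p under 0.05.

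Besides *Gstt3*, the genes below the filter were *Gstm6* with 11, 3 and 3 under KO and 10, 16 and 8 under WT, *Gstp2* with 10, 8 and 4 against 6, 10 and 7, *Gsta1* with 3, 1 and 3 against 0, 3 and 2, and *Gsto2* with 0, 6 and 3 against 0, 4 and 3. Without the filter on the mean, *Gstm6* was at an unadjusted p under 0.05 (limma). For *Gsta1* the 3 WT values lay at or under the level of 3 reads, and no fold change is given. Reads that match several places were removed by the authors, so the mu, pi, alpha and theta genes, which have close copies, may be under-counted, and reads between such neighbours are uncertain.

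*Nfe2l2* had 292, 279 and 270 under KO and 286, 272 and 223 under WT. WT replicate 3 was low and the other 5 hearts lay together, and the log2 fold change was 0.11 (SE 0.09) with an unadjusted p of 0.222 (limma). With 1 heart left out, the fold change of *Nfe2l2* ran from 0.01 to 0.19 on the log2 scale. *Nqo1*, a quinone reductase and classical NRF2 target, had 168, 151 and 162 under KO and 166, 150 and 132 under WT, a log2 difference of 0.11 (SE 0.10), with WT replicate 3 again the lowest. That of *Nqo1* ran from 0.02 to 0.19 with 1 heart left out. *Hmox1*, the inducible haem oxygenase, had 32, 38 and 31 under KO and 38, 36 and 31 under WT. Its groups covered nearly the same range, and the log2 fold change was -0.06 (SE 0.19) with a ratio between 0.726 and 1.28 by the 95% interval.

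Promoter windows of RefSeq (GRCm38.p6), from 250 bases before to 50 after a transcript start, were found for 38 of the 45 members. There were 52 windows in all, since some genes have alternative starts. They were searched on both strands for TGACNNNGC, the core of the antioxidant response element to which NRF2 binds. The motif was present in a window of 8 members, or 21.1% of 38, beside 17.2% of the 9351 tested protein-coding genes with a window and 14.0% of all 27025 genes with one. The 38 include the 5 members that were not tested, all without a match, whereas the 17.2% covers tested genes only. A match is a description of the letters, and sequence outside these windows was not searched. The matches are shown because they let the genes be compared by sequence, with the motif in capitals and the strand chosen so that it reads TGAC first.
Gclm: cgtgagagtTGACGGTGCgcccgggag
Gsta3: actcaggcaTGACATTGCatttttctt
Gstm5: accgcccacTGACCACGCggagggcgg
Gstm7: ctgaagaccTGACAAAGCgaagccaat
Nfe2l2: cagcccaccTGACTCCGCcatgccccg
Prdx1: tacgggggaTGACTCAGCgctttccct
Sod1: gcctgagtcTGACCACGCccaccttgg
Txnrd1: gtgtcagaaTGACAAAGCaaaaatcca
These stretches lie at chr3:122245414-122245440 (*Gclm*, minus strand), chr1:21240455-21240481 (*Gsta3*, plus), chr3:107895803-107895829 (*Gstm5*, plus), chr3:107931726-107931752 (*Gstm7*, minus), chr2:75704886-75704912 (*Nfe2l2*, minus), chr4:116685457-116685483 (*Prdx1*, minus), chr16:90220697-90220723 (*Sod1*, minus) and chr10:82859105-82859131 (*Txnrd1*, minus). Each match lies before the start that its window was drawn from. Those of *Txnrd1* and *Gstm7* lie inside the gene as the table bounds it, before an alternative start. Their genes gave mixed signs, 5 higher and 3 lower in KO with log2 fold changes from -0.23 to 0.22 and a median of 0.11. The 25 tested members with a window but no match had 10 higher and 15 lower, with a median of -0.05. The difference between these sets was not tested.

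Genes that act around these enzymes were taken from lists that hold no member. Of these, 72 were present and 68 tested, 39 with a positive and 29 with a negative log2 fold change. None passed an adjusted p of 0.05 (limma), 0 passed with limma-voom, and 4 were at an unadjusted p under 0.05, or 5.88% of 68 beside 5.74% of all genes tested. Among regulators of NRF2, *Keap1*, which marks NRF2 for degradation, had 253, 228 and 207 under KO and 243, 238 and 232 under WT, a log2 difference of -0.06 (SE 0.09). *Bach1*, a repressor at the same motif, had 400, 365 and 355 against 376, 367 and 354, a log2 difference of 0.03 (SE 0.07). In neither gene were the groups apart.

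Of further NRF2 targets, *Srxn1*, which repairs overoxidised peroxiredoxins, had 110, 108 and 124 under KO and 86, 98 and 113 under WT. The groups overlapped, with a log2 difference of 0.21 (SE 0.12). *Slc7a11*, which imports cystine for glutathione synthesis, was near the limit of detection, with 1, 0 and 4 under KO and 6, 2 and 3 under WT. From the list of thioredoxin partners, *Txnip*, which binds and inhibits thioredoxin, had 1242, 1435 and 1495 against 1201, 1333 and 1280. Its log2 difference was 0.13 (SE 0.07) with overlapping groups. From the list of NADPH supply, *Nnt*, the mitochondrial transhydrogenase, had 44, 39 and 30 against 47, 35 and 36.

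*Chac1*, an enzyme that breaks down glutathione, was 1 of the 4 genes at an unadjusted p under 0.05. It had 17, 12 and 2 under KO and 20, 19 and 17 under WT, and the highest KO heart equalled the lowest WT heart. The value of 2 in KO replicate 3 lay under the level of 3 reads, 2.98 in that library. The log2 fold change was -1.14 (SE 0.47) at an unadjusted p of 0.0241 and an adjusted p of 0.851 (limma), and without KO replicate 3 it was -0.36. The unadjusted p was under 0.05 in 3 of the 6 fits that left out 1 heart. *Mt2*, a metallothionein, had 28, 47 and 64 under KO and 36, 28 and 27 under WT, with overlapping groups. It differed by 0.53 (SE 0.24) on the log2 scale at an unadjusted p of 0.0430 and an adjusted p of 0.851 (limma). Leaving out 1 heart at a time, this difference ran from 0.26 without KO replicate 3 to 0.85 without KO replicate 1, and the unadjusted p was under 0.05 in 2 of the 6 fits. *Mt1*, a related metallothionein, had 88, 122 and 122 against 111, 104 and 88, at 0.12 (SE 0.14). The selenium carrier *Selenop* and the selenocysteine factors *Sephs2*, *Secisbp2*, *Eefsec* and *Sepsecs* were all above an unadjusted p of 0.05 (limma).

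On the side of superoxide production, *Rac2*, a small GTPase of blood cells that activates NADPH oxidase, had 15, 18 and 12 under KO and 10, 9 and 6 under WT, with no overlap. It differed on the log2 scale by 0.79 (SE 0.33) at an unadjusted p of 0.0271 and an adjusted p of 0.851 (limma), and the unadjusted p was under 0.05 in 3 of the 6 fits that left out 1 heart. It is expressed mainly by leukocytes. The 7 markers of macrophages and leukocytes were all above 0 in every heart, with 3 higher and 4 lower in KO and 1, *C1qb*, at an unadjusted p under 0.05. *C1qb*, a complement subunit made by macrophages, had 78, 100 and 90 under KO and 65, 75 and 64 under WT, without overlap. The marker sums of 901 to 1250 in KO hearts enclosed the WT range of 1022 to 1118. The part of leukocyte number in the *Rac2* values was not tested.

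The groups did not overlap for 8.82% of the 68 related genes tested, near the 9.07% of all genes tested. Besides *Rac2*, 4 related genes of this kind are named after their values were seen. These were *Idh1*, a cytosolic source of NADPH, with 404, 351 and 378 under KO and 337, 339 and 346 under WT, *Mafg*, a partner of NRF2 on DNA, with 279, 284 and 298 against 252, 264 and 266, *Glrx3* with 199, 188 and 192 against 228, 206 and 206, and *Mgst3*, a microsomal glutathione S-transferase, with 179, 173 and 179 against 202, 185 and 189. Their unadjusted p-values ran from 0.0587 for *Idh1* to 0.199 for *Mgst3* (limma).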

How the data were processed

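RNA of 6 hearts was sequenced by the authors as strand-specific single-end reads of 75 bases. Per the labels and the study's methods, reads were trimmed with Trimmomatic 0.39 and aligned to GRCm38 with STAR 2.6.1d. Duplicates were removed with Picard 2.21.1, and multi-mapping, ribosomal and mitochondrial reads were discarded. Counting used featureCounts 1.6.5 on exons of the correct strand. The deposited score is a read count scaled by the authors with DESeq2 1.18.1 size factors, rounded by them, and was therefore tested on the log2 scale and not as raw counts.

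Groups were taken from the labels. Size factors were estimated from skipped and repeated whole numbers, with an error of at most 0.00133% in 6 simulated libraries of 21776 genes. By them 3 reads correspond to values of 2.61 to 3.77. Depth limits precision, and such floors cover counting error only. The test was limma 3.58.1 in R 4.3.3 (lmFit, eBayes with trend) on log2(value + 1), with residual degrees of freedom of 4 and prior degrees of freedom of 15.4, in genes with a mean of at least 10. Tested on 5 simulated sets with 200 changed genes each, it found between 61 and 65.7% of the 1.5-fold changes and between 85 and 91% of the 2-fold changes, with at most 6.88% false calls. The simulated sets had equal depth and the same spread beyond counting error for every gene. These rates therefore need not hold for the hearts measured here. Alternatives were limma-voom, other scalings and filters, a pseudocount of 0.1, no variance trend, a replicate block, a threshold of 0.01 and leaving out each heart. Exons were those of GENCODE M21, which holds all 45 identifiers, 30 of them with the table's coordinates.

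The members and lists were chosen with earlier results of these data known. Every member was named, and given in every heart were those at an unadjusted p under 0.05, those without overlap, the one with the most reads in each role, and *Nfe2l2*, *Hmox1*, *Nqo1*, *Gclc*, *Gclm* and *Cat*, with others added after their values were seen. The rule for related genes named those at an unadjusted p under 0.05 and 8 fixed ones, except 1 that is not reported here. *Idh1*, *Mafg*, *Glrx3*, *Mgst3*, *Selenop*, *Sephs2*, *Secisbp2*, *Eefsec* and *Sepsecs* fall outside it and were added after their values were seen. Marker lists for atrial, fat, fibroblast, endothelial and smooth muscle cells gave 0 genes at an unadjusted p under 0.05 (limma).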

Additional observations from a re-analysis of the deposited data

How the results depend on the processing

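No antioxidant or glutathione gene passed an adjusted p of 0.05 (limma) under any of the alternatives run, and no related gene did. The number of members at an unadjusted p under 0.05, stated as 3, ran from 0 when WT replicate 1 was left out to 6 when WT replicate 3 was. It was 1 without KO replicate 3 and 1 without WT replicate 2. With no filter beyond a total of 1 it was 4, and the added gene was *Gstm6*. The number of related genes at that level, stated as 4, was 7 with limma-voom, 7 under total scaling and 2 with at least 10 in every library, where *Chac1* and *Rac2* gave no value. Over the fits that left out 1 heart it ran from 2 to 8, with 8 for WT replicate 3, 7 for KO replicate 1, and 2 each for KO replicate 3, WT replicate 1 and WT replicate 2. The count over all genes tested, stated as 4, was 2 with at least 10 in every library, 1 without the mean-variance trend and 2 at an adjusted p of 0.01. Leaving out 1 heart moved it between 2 and 32, with 32 for KO replicate 1, 7 for WT replicate 3, and 2 each for KO replicate 2 and WT replicate 1. Where no reason is given, the cause was not tested.

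Signs reversed for 18 of the named genes, to values of at most 0.0909 in size on the log2 scale. With limma-voom and total scaling *Gsta4* was at 0.00700 and 0.00811, *Gstp1* at 0.00409 and 0.00476, and *Selenop* at 0.0151 and 0.0161. With cyclic loess *Selenop* was at 0.0190, and with limma-voom *Sepsecs* was at 0.0014. With 1 heart left out, the log2 fold change ran from -0.0222 to 0.0637 for *Bach1*, -0.196 to 0.0317 for *Gpx1*, -0.159 to 0.0311 for *Gpx3*, -0.0512 to 0.00463 for *Gsr*, -0.0367 to 0.202 for *Gss*, -0.0579 to 0.0640 for *Gsta4*, -0.0782 to 0.0115 for *Gstm1* and -0.0969 to 0.0516 for *Gstp1*. It ran from -0.00826 to 0.133 for *Gstz1*, -0.143 to 0.00521 for *Hmox1*, -0.129 to 0.0153 for *Keap1*, -0.183 to 0.0854 for *Nnt*, -0.117 to 0.00548 for *Prdx3*, -0.0578 to 0.214 for *Sod3*, -0.0255 to 0.106 for *Txnrd2*, -0.0909 to 0.178 for *Eefsec*, -0.0886 to 0.0816 for *Selenop* and -0.0761 to 0.0663 for *Sepsecs*. The median log2 fold change of the members, stated as -0.02, ran from -0.0476 without WT replicate 3 to 0.0203 without WT replicate 1, and was also above 0 with limma-voom, under total scaling and without KO replicate 3.

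Hearts that share a replicate number had correlations of 0.05, -0.07 and -0.03 over genes, after removal of the group means, and genes are no replicates. The numbers therefore gave no pairing. Using the number as a replicate block left 1 member, *Gstk1*, at an unadjusted p under 0.05, and 0 at an adjusted p under 0.05 (limma). Depth limits the precision for genes with few reads, and a 1.5-fold difference stayed inside the interval for 6 members.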
